A study of Mus musculus with 144 samples.

Results

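At day 2 after optic nerve crush, 21 of 54 Iba1-positive retinal cells carried the Gpr84 transcript at 20 FPKM or more, and the other 33 lay below that level. FPKM stands for fragments per kilobase of exon for every 1e+06 reads assigned to genes. These 21 Gpr84-high cells were compared with the 33 Gpr84-low cells, out of 144 cells sequenced in all. The high cells were chosen by their measured Gpr84 level in the same cells that were then compared, so every day 2 difference is a description and carries no test.

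Each library is 1 fluorescence-sorted cell. The mice were of the Iba1-EGFP strain and 16 weeks old in every group. The groups used are the Gpr84-high and Gpr84-low cells of nerve crush day 2, the cells of nerve crush day 4 and the untreated cells, the last 2 for comparison (36 and 54 cells). The reporter is driven by Iba1, which other macrophages use as well as microglia, and the labels name no animal, so each group counts as 1 sample of cells. The cells sat on 3 plates. The high cells numbered 1, 11 and 9 on plates 1, 2 and 3, and the low cells 17, 7 and 9, so only plates 2 and 3 give a within-plate value.

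GPR84 is a receptor on microglia, macrophages and neutrophils that responds to medium-chain fatty acids and couples to inhibitory G proteins. It is low in resting microglia and is raised by inflammatory stimuli, in part through NF-kB. Microglia are the resident macrophages of the retina and respond to axon damage by producing TNF and interleukin-1 alpha, cytokines that act on neighbouring glia and neurons. The study's title ties GPR84 to these cytokines.

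Gpr84 (ENSMUSG00000063234) lies at chr15:103308235-103310612 on the minus strand of GRCm38.p6. Its RefSeq promoter, 250 bases before to 50 after the start of transcription, held 2 matches to the NF-kB motif GGGANTTTC when both strands were searched. The motif occurred in 365 of 32851 RefSeq promoters (1.11%), and 5 promoters (0.0152%) held 2 or more. Both matches are shown because NF-kB feedback and target genes are among those described for these cells. Capitals mark the motif, with 10 bases on either side, and positions count from the RefSeq start.
Gpr84 -134, chr15:103310554-103310582, minus strand: taagttgcagGGGAATTTCaacagagaag
Gpr84 -37, chr15:103310457-103310485, minus strand: tgggtaacttGGGAGTTTCttatttctgt
No match to the other motifs searched overlapped these. A match is a description of the letters and shows no binding. The deposited annotation starts the gene further upstream than RefSeq, so these stretches lie within its annotated gene body.

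In Gpr84-high cells the Gpr84 level was 23.5 FPKM at its lowest, 137 at the median and 797 at its highest, against 0.213, 1.51 and 18.2 FPKM in Gpr84-low cells. The mean log2(FPKM + 1) was 7.16 ± 1.53 in high cells and 1.63 ± 0.98 in low cells (SD over 21 and 33 cells), a gap made by the split itself. The 4 high cells nearest the threshold had 23.5, 24.1, 30.9 and 33.6 FPKM, and the 4 low cells nearest to it had 10.1, 11.3, 13.4 and 18.2 FPKM. All 33 low cells had a value above 0 and 24 of them reached 1 FPKM, so no cell of day 2 was free of Gpr84 reads. Some other well in the same plate column reached 334 to 3240 FPKM for the 4 low cells at 10 FPKM or more, and 4.39 to 1607 FPKM for the other 29, and the part of reads from other wells in these values was not tested. Of the Gpr84 values in all cells, 60.4% were not a whole number of reads. Its exons overlap those of the predicted gene Gm49482, whose level differed by 5.42 and which cannot be told apart from Gpr84 here.

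The high cells also contained more detected genes. The number of genes at 1 FPKM or more was 1955 to 6926 with a median of 4228 in high cells, and 1368 to 5635 with a median of 2888 in low cells. The order was the same within plates, with medians of 4126 in high and 3513 in low cells of plate 2, and 4427 in high and 3360 in low cells of plate 3. Read depth was recovered from the value that 1 read adds in each cell. It had a median of 7.19 M reads in high cells and 4.88 M in low cells, with M for 1e+06. These medians were 8.12 and 4.15 M within plate 2, and 6.79 and 6.52 M within plate 3. After thinning every cell to 1e+06 reads and counting genes with 5 reads or more, the median was 3535.5 genes in 20 high cells and 2256.5 in 32 low cells, with 1 shallower cell left out of each group. The 20 most abundant genes took a median of 21.4% of reads in high cells and 26.4% in low cells. The median difference over all measured genes was itself above 0, at 0.51 on the log2(FPKM + 1) scale with plates pooled, 0.25 in plate 2 and 0.55 in plate 3. It was 0.04 in a linear fit that held plate and the number of detected genes constant. This adjusted difference is given for each gene list and for the genes the text turns on. The part of gene number in the general shift was not tested.

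**Figure D1:**
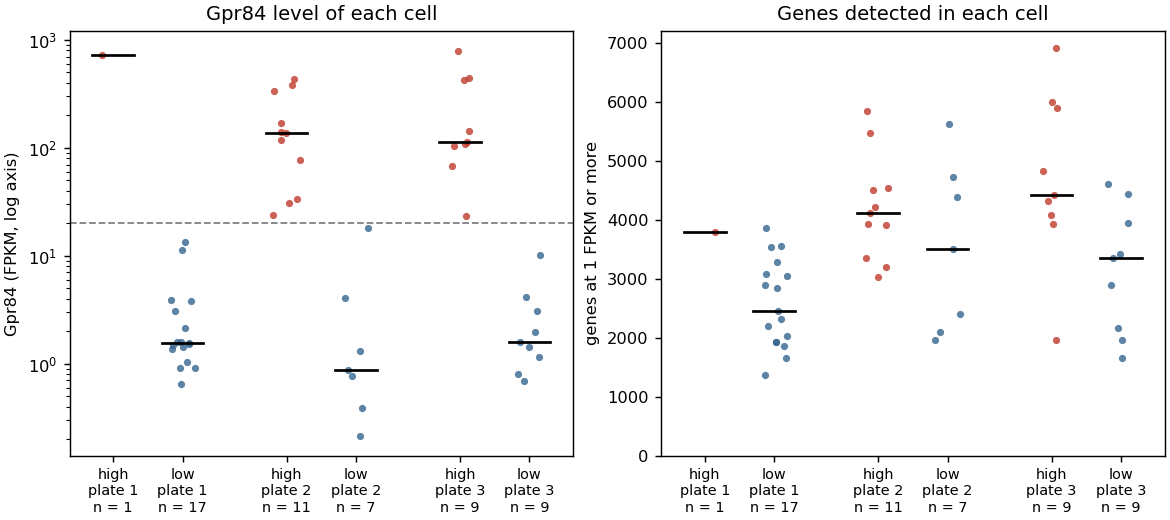
Gpr84 level (left, FPKM, log axis) and number of genes at 1 FPKM or more (right) in each of the 54 cells of day 2, by plate, with high cells in red and low cells in blue. Bars are medians and the dashed line is the threshold of 20 FPKM. The high cells had a median of 4228 detected genes and the low cells 2888, and the 2 groups overlapped on plates 2 and 3.

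A gene was called higher when its mean log2(FPKM + 1) was at least 1 above that of low cells with plates pooled and in both plates 2 and 3, and lower by the same rule in the other direction. Of 8778 measured genes, 722 were called higher in Gpr84-high cells (8.23%) and 4 were called lower (0.0456%). Over all measured genes, 45.6% lay above 0 in the pooled comparison and in both plates, and 7.76% lay below 0 in all 3. When the same rule, pooled and in both plates, was applied to adjusted differences, it called 301 genes higher and 213 lower, and 257 and 4 of these were among the genes called without adjustment. By the pooled adjusted difference alone, 445 of the 722 genes called higher were still at 1 or more, and all 4 called lower were at -1 or less.

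Il1a was among the genes with the largest differences. Il1a, which encodes interleukin-1 alpha (chr2:129299610-129309972, minus strand), stood at 1.53, 393 and 3972 FPKM (lowest, median and highest) in Gpr84-high cells, against 1.14, 6.2 and 1869 FPKM in Gpr84-low cells. The ranges overlapped, but most high cells lay in the upper part and most low cells near the bottom. Its mean log2(FPKM + 1) was 7.74 ± 3.08 in high cells and 4.09 ± 2.77 in low cells (SD over 21 and 33 cells), a difference of 3.65, with 3.95 in plate 2, 4.12 in plate 3 and 3.02 after adjustment. The mean FPKM was 782 in high cells and 141 in low cells, 5.54-fold higher. At 20 FPKM or more, Il1a was present in 18 of 21 high cells (85.7%, exact 95% binomial interval 63.7% to 97.0%) and in 12 of 33 low cells (36.4%, 20.4% to 54.9%). These intervals cover counting error only. Of the Il1a values in all cells, 52.8% were not a whole number of reads, and its exons overlap those of Gm14023, so its level is uncertain to that extent.

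Tnf, the tumour necrosis factor gene (chr17:35199381-35202007, minus strand), ran from 0.119 to 832 FPKM with a median of 108 in high cells, and from 0.289 to 1355 FPKM with a median of 2.32 in low cells. The highest single value belonged to a low cell, while 13 of 21 high cells (61.9%, 38.4% to 81.9%) and 3 of 33 low cells (9.09%, 1.92% to 24.3%) reached 20 FPKM. Its mean log2(FPKM + 1) was 5.08 ± 3.51 in high cells and 2.34 ± 2.20 in low cells, a difference of 2.75 and of 1.67 after adjustment. The difference was 4.59 in plate 3 and 0.90 in plate 2, below the required 1, so Tnf was not called. In plate 2, 6 of 11 high and 2 of 7 low cells reached 20 FPKM, and in plate 3, 6 of 9 high and 0 of 9 low cells did. Tnf and Il1a were both at 20 FPKM or more in 12 of 21 high cells (57.1%, 34% to 78.2%) and in 2 of 33 low cells (6.06%, 0.743% to 20.2%). The high cells were not uniform, since 2 of the 21 had neither cytokine at that level and 13 of the 33 low cells had at least 1 of them.

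The 150 bases before the RefSeq start of Il1a are shown with the AP-1 motif TGANTCA in capitals, because the AP-1 subunit genes described further on were also higher in these cells.
Il1a, chr2:129309973-129310122, minus strand, GRCm38.p6: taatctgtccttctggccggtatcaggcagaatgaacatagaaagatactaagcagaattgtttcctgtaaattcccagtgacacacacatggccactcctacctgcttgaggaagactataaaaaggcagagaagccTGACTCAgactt
The motif was found in 7.81% of all RefSeq promoters. Among genes with a promoter in that collection, it was in 26 of 514 called higher (5.06%) and in 307 of 5276 measured (5.82%). The RefSeq promoter of Il1a held 0 matches to the NF-kB motif, and that of Tnf held 0 to the NF-kB or AP-1 motif.

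Other cytokine and chemokine genes did not follow Il1a as a group. Of 18 measured, Il1a was the only one called higher, beside 8.23% of all measured genes. The median difference of the 18 was 0.81 pooled, 0.19 in plate 2, 1.08 in plate 3 and -0.62 after adjustment, so its direction turned. Ccl3 and Ccl4, which encode inflammatory chemokines, differed by 1.07 and 1.45 pooled but by -1.10 and 0.29 in plate 2. Ccl2, a monocyte attractant, differed by 1.32 in plate 2 and 0.02 in plate 3. Il1b, the other main interleukin-1 gene, averaged 2.65 FPKM in high cells and 66.1 FPKM in low cells, with a log2 difference of 0.01.

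**Figure D2:**
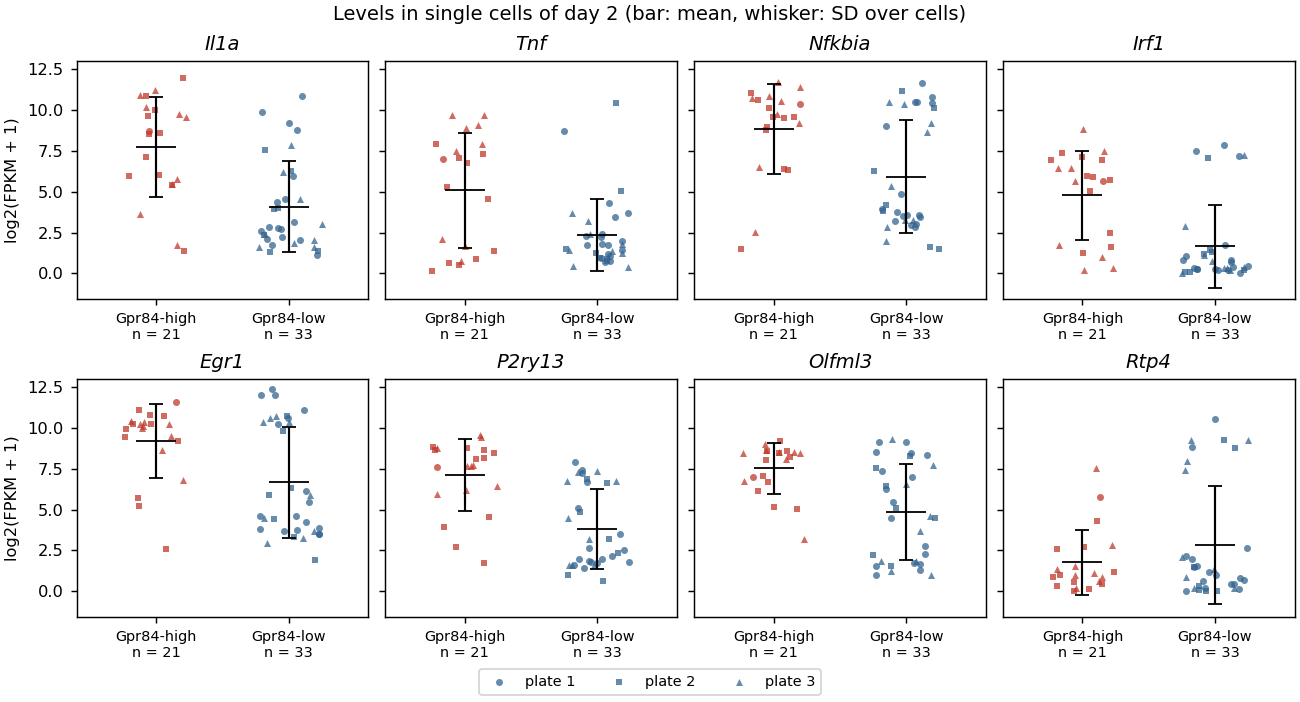
Level of 8 genes, as log2(FPKM + 1), in each Gpr84-high (red, n = 21) and Gpr84-low (blue, n = 33) cell of day 2, with the plate given by the marker shape. Bars are means and whiskers are the SD over cells. Il1a and Irf1 were mostly high in high cells and near the bottom in low cells, while Rtp4 was high in a few low cells, and every gene overlapped between the groups.

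Several feedback inhibitors and target genes of NF-kB were higher in Gpr84-high cells, and its subunit genes were not called. NF-kB is held in the cytoplasm by IkB proteins, whose genes NF-kB itself induces. Of 22 measured genes of the list, 10 were called higher and 0 lower, beside 8.23% and 0.0456% of all measured genes. The list had a median difference of 1.2 pooled, 1.25 in plate 2, 1.70 in plate 3 and 0.68 after adjustment. Nfkbia, which encodes the inhibitor IkB-alpha, stood at 1.85, 758 and 3362 FPKM in high cells and at 1.76, 14.6 and 3183 FPKM in low cells (lowest, median, highest). Its values in low cells lay in a lower and an upper group, and 19 of 21 high cells but 15 of 33 low cells reached 20 FPKM. Its difference was 2.93, with 2.88 in plate 2, 3.10 in plate 3 and 1.85 after adjustment. The further inhibitors Nfkbib, Nfkbid and Nfkbiz differed by 2.22, 2.21 and 2.08, and Tnfaip3, which encodes the ubiquitin-editing enzyme A20, by 1.88. Zfp36, whose product tristetraprolin destabilises the Tnf mRNA, differed by 2.09. Icam1, an adhesion molecule, differed by 2.7 and Cd83, a surface protein of activated antigen-presenting cells, by 2.27. After adjustment these last 2 stood at 1.93 and 0.66, and Nfkbib at 1.18. Ier3 and Marcksl1 made up the rest of the genes called. The subunit genes had differences of 0.48 for Nfkb1, 0.39 for Rela, 0.48 for Rel, 0.94 for Relb and 0.86 for Nfkb2.

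The promoter of Nfkbia held 2 matches to the same NF-kB motif as that of Gpr84, the first on the strand of the gene and the second on the other strand.
Nfkbia, chr12:55492648-55492797, minus strand, GRCm38.p6: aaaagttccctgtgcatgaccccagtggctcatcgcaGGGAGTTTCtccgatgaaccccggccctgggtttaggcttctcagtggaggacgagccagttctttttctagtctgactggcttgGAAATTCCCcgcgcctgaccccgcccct
Over the genes with a promoter, the motif was in 3 of 514 called higher (0.584%) and in 60 of 5276 measured (1.14%), so sharing it with Gpr84 was not a common property of the genes called. The PU.1 motif GAGGAAGT was in 27 of 514 (5.25%) and in 237 of 5276 (4.49%), and in 3.20% of all promoters.

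Few Toll-like receptor genes and adaptors met the rule in both plates. Toll-like receptors sense microbial products and released self molecules and signal through MyD88 to NF-kB. Of 18 measured genes, 2 were called higher and 0 lower, a share near that of all measured genes (8.23%). Their median difference was 1.46 pooled, 0.76 in plate 2, 1.51 in plate 3 and 0.52 after adjustment. Tlr7, the receptor for single-stranded RNA, reached 20 FPKM in 7 high cells and 1 low cell and differed by 1.89, or 1.6 after adjustment. Irf5, a transcription factor downstream of MyD88, differed by 2.39, or 1.1 after adjustment. Tlr1 and Tlr2, which together sense lipoproteins, differed by 2.44 and 2.01 pooled, but by 0.995 and 0.864 in plate 2. They were not called, and Tlr1 missed the required 1 narrowly. Tlr4, the lipopolysaccharide receptor, and Myd88 differed by 1.45 and 1.77, with 0.44 and 0.90 in plate 2.

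Many immediate-early genes, which are transcribed within minutes of a stimulus and are also induced by tissue dissociation, were higher in Gpr84-high cells. Of 21 measured, 9 were called higher and 0 lower, beside 8.23% and 0.0456% of all measured genes. The list had a median difference of 1.83 pooled, 1.87 in plate 2, 1.68 in plate 3 and 0.71 after adjustment. The genes called were Egr1, Ier2, Ier5, Jund, Jun, Junb, Fos, Btg2 and Dnajb1, of which Fos, Jun, Junb and Jund encode AP-1 subunits. Egr1, a zinc finger transcription factor, stood at 5.13, 1121 and 3052 FPKM in high cells and at 2.83, 44.1 and 5242 FPKM in low cells. Most high cells were near the top of its range, and the low cells were spread between the bottom and the top. Its difference was 2.52, or 1.89 after adjustment. The heat shock genes Hspa1a and Hspa1b differed by 0.03 and 0.22, and Nr4a1, an orphan nuclear receptor gene, by 0.02. The part of handling before lysis in these levels was not tested.

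Genes of homeostatic microglia, the set that marks surveying cells, were higher in the Gpr84-high cells, and of the lists shown their median moved least on adjustment. Of 20 measured, 7 were called higher and 0 lower, beside 8.23% and 0.0456% of all measured genes. Of the 20, 19 lay above 0 in the pooled comparison and in both plates, beside 45.6% of all measured genes. The list had a median difference of 1.53 pooled, 1.64 in plate 2, 0.95 in plate 3 and 1.55 after adjustment. It was 0.57 when the log2 of the mean FPKM was compared. P2ry13, an ADP receptor, stood at 2.25, 213 and 772 FPKM in high cells against 0.572, 5.18 and 241 FPKM in low cells, and differed by 3.31 (2.39 after adjustment). Olfml3, a secreted glycoprotein of microglia, stood at 8.37, 293 and 587 FPKM in high cells against 0.984, 23.4 and 641 FPKM in low cells, and differed by 2.67 (2.62 after adjustment). High cells were concentrated at the top for both genes, and low cells covered the whole range. Tmem119, a microglial surface protein, was at 20 FPKM or more in 21 of 21 high and 23 of 33 low cells and differed by 1.84. Mertk, a receptor for phagocytosis of dying cells, differed by 1.96, and Sall1, a transcription factor of microglial identity, by 2.06. P2ry12 and Cx3cr1, receptors for ADP and fractalkine, differed by 1.79 and 1.41 pooled but by 0.43 each in plate 3, and were not called. Fcrls was called higher at 1.74 but stood at -0.51 after adjustment.

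Markers of the labelled cell type were present in both groups. Every one of the 54 cells had at least 10 of 12 microglia markers at 1 FPKM and at least 3 at 20 FPKM. The summed level of the 12 markers was 2999.6 to 19023 FPKM in high cells and 969 to 28607.5 FPKM in low cells, with medians of 12642 and 11404. Aif1, the gene of Iba1, averaged 567 FPKM in high cells and 1036 FPKM in low cells. Trem2 averaged 197 and 237 FPKM and C1qa 3104 and 3174 FPKM, while the mean FPKM of the remaining markers was higher in high cells.

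**Figure D3:**
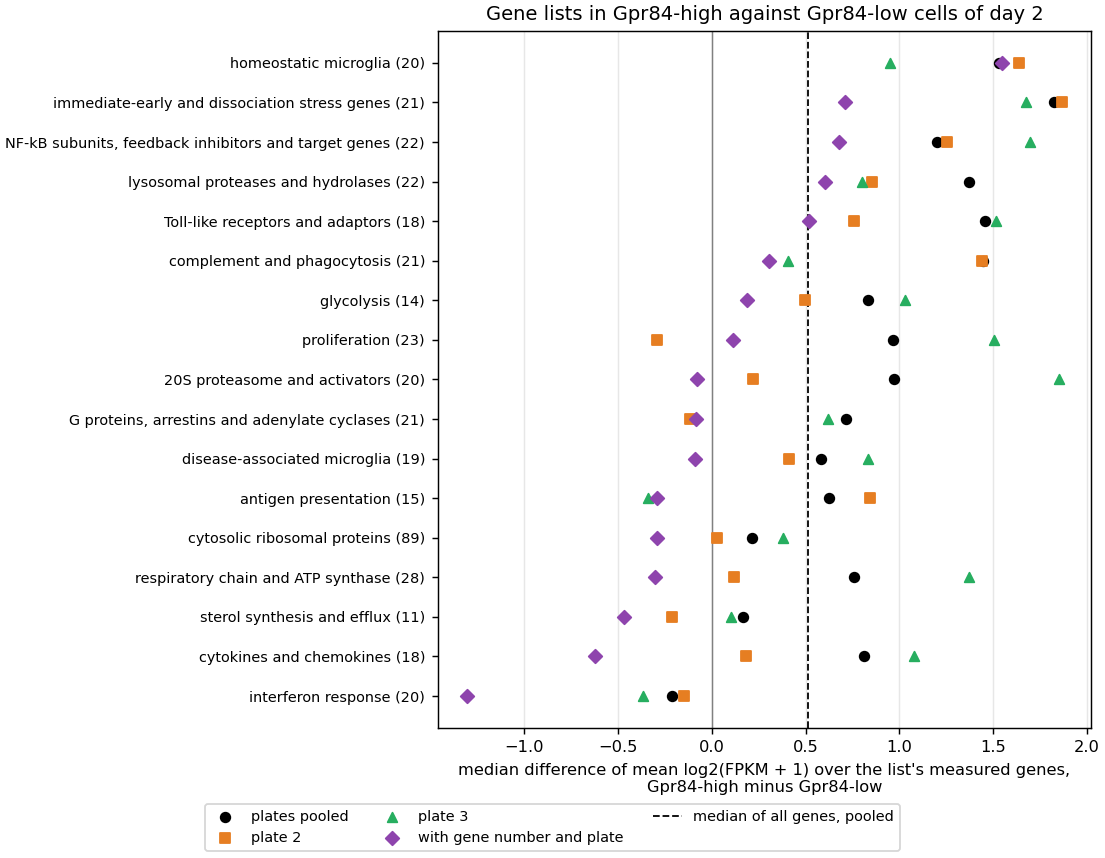
Median difference of each gene list between Gpr84-high and Gpr84-low cells of day 2, with the number of measured genes in brackets. Circles are plates pooled, squares plate 2, triangles plate 3 and diamonds the difference with gene number and plate held constant, and the dashed line is the median of all genes (0.51). The homeostatic list stayed near 1.5 after adjustment, while 9 of the lists lay below 0 after it, among them the cytokine, ribosomal and interferon lists.

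Beyond Il1a and P2ry13, the largest differences among the named genes belonged to genes of mixed function. Pmp22, a membrane protein best known from myelin, stood at 1.26, 179 and 678 FPKM in high cells and at 0, 2.21 and 376 FPKM in low cells. It had the largest difference of the named genes that were called, 3.75 (2.06 after adjustment). Gm49482, which overlaps Gpr84 and was left out of the naming, was also called, at 5.42. Pros1 encodes protein S, the bridging ligand of the Mertk receptor, and differed by 3.33. Its minimum of 0.864 FPKM belonged to the 1 high cell that stayed under 20 FPKM, against 22 such cells of 33 in the low group. Golm1, a Golgi membrane protein, differed by 3.44 and Stt3a, the catalytic subunit of an oligosaccharyltransferase, by 3.13. The surface receptors Cd37 (a leukocyte tetraspanin), Cd300c2 (a CD300 family receptor of myeloid cells), Csf3r (the granulocyte colony-stimulating factor receptor) and Gpr183 (an oxysterol receptor) differed by 3.27, 3.25, 3.17 and 3.14. Jtb differed by 3.25. After adjustment Jtb stood at 1.71, Gpr183 at 1.56, Cd300c2 at 1.78, Stt3a at 2.22, Pros1 at 2.72, Csf3r at 3.02, Golm1 at 3.55 and Cd37 at 3.88. The row of the microRNA gene Mir3064 differed by 3.40 but overlaps exons of Ddx5, so that the 2 cannot be told apart. More than 50% of values were not whole reads for Golm1, Mir3064, Csf3r, Icam1, Jund, Ighm, Oas1a, Glul, Lyz2, Stmn1 and Gngt2. Their levels are uncertain to that extent. The same holds for Golm1, Cd37, Icam1, Irf1, Irf5, Jund, Nfkbib, Gna13, Arrb2, Ctsl, Hexa and Rtp4, whose exons overlap those of another gene. Exons of P2ry12, Stmn1, Glul, Gngt2 and Atp5a1 also overlap those of another gene.

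Genes of the receptor's own signalling differed little from the general shift. Of 21 measured genes for G proteins, arrestins, receptor kinases and adenylate cyclases, 2 were called higher and 0 lower. This share was near that of all measured genes (8.23%). The median difference of the list was 0.72 pooled, -0.12 in plate 2, 0.62 in plate 3 and -0.08 after adjustment, so the list turned direction. Gna13, which encodes a G protein alpha subunit, differed by 1.53, and Arrb2, which encodes the scaffold beta-arrestin 2, by 1.44, and the 2 stood at 1.23 and 0.33 after adjustment. Gnai2, the main inhibitory G protein gene of these cells at 110 FPKM in high cells and 127 FPKM in low cells, differed by 0.42 pooled and -1.17 in plate 2.

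Some phagocytic and lysosomal genes were higher in high cells, while the median of the phagocytic list was below that of all genes in plate 3. Of 21 complement and phagocytosis genes, 5 were called higher and 0 lower, beside 8.23% of all measured genes. The genes called were Pros1, Mertk, Cd68, Lamp2 and Fcgr1. The median of the list was 1.45 pooled, 1.44 in plate 2, 0.40 in plate 3 and 0.30 after adjustment. Of 22 lysosomal proteases and hydrolases, 4 were called higher and 0 lower, with a median of 1.37 pooled, 0.86 in plate 2, 0.80 in plate 3 and 0.61 after adjustment. The genes called included Ctsl (2.24), a cysteine protease, and Hexa (2.09) and Gusb (2.17), enzymes that degrade gangliosides and glucuronides. After adjustment these stood at 2.28, 0.88 and -0.67, so that Gusb turned direction. Cd68, a lysosomal membrane protein of macrophages, ran from 64.8 to 3594 FPKM in high cells and from 4.25 to 5514 FPKM in low cells and differed by 2.12. The complement genes C1qa, C1qb and C1qc, which are among the most abundant transcripts of microglia, differed by 0.52, 0.52 and 0.39, close to the all-gene median. Of 19 genes of disease-associated microglia, 2 were called higher and 0 lower, with a median of 0.58 pooled and -0.09 after adjustment. Of 15 antigen presentation genes 1 was called, Cd86 (2.12), a T cell costimulator, and the median was 0.63 pooled, -0.34 in plate 3 and -0.29 after adjustment.

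Housekeeping and metabolic lists had medians near or below 0 after adjustment, and they differed in their share of called genes. The 20 proteasome genes had a median difference of 0.97 with 3 called higher, the 28 respiratory chain genes 0.76 with 4, the 14 glycolysis genes 0.83 with 1 and the 89 cytosolic ribosomal protein genes 0.21 with 1, and 0 of any of these lists were called lower. Beside 8.23% of all measured genes called higher, the share was larger in the proteasome and respiratory chain lists. It was similar in the glycolysis list and smaller in the ribosomal list. The all-gene median was 0.51, which the ribosomal list did not reach. After adjustment the medians of these lists, in the same order, were -0.08, -0.30, 0.19 and -0.29. Proliferation genes, which mark dividing cells, had a median of 0.96 pooled, -0.29 in plate 2, 1.5 in plate 3 and 0.11 after adjustment. Of these, 0 of 23 were called. The difference of Stmn1, a microtubule destabiliser of dividing cells, was -0.50 in plate 2 and 4.47 in plate 3. Sterol synthesis genes were low in both groups and 0 of 11 were called, with a median of 0.16 pooled and -0.47 after adjustment.

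The interferon response list stood below the all-gene median. Interferon-stimulated genes encode antiviral proteins and are switched on together by type I interferon. Of 20 measured, 1 was called higher and 2 were called lower, beside 8.23% and 0.0456% of all measured genes. The list had a median difference of -0.21 pooled, -0.15 in plate 2, -0.37 in plate 3 and -1.30 after adjustment. Irf1, a transcription factor that interferon-gamma and NF-kB both induce, was the gene called higher. It stood at 0.149, 50.9 and 453 FPKM in high cells and at 0, 0.359 and 231 FPKM in low cells, and 14 of 21 high cells against 5 of 33 low cells reached 20 FPKM. Its difference was 3.11, with 3.50 in plate 2, 2.76 in plate 3 and 3.26 after adjustment, so it was not reduced by the adjustment.

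Oas1a, which encodes an oligoadenylate synthetase, and Rtp4, an interferon-induced chaperone of receptors, were the 2 interferon genes called lower. Oas1a reached 20 FPKM in 3 of 21 high cells and 10 of 33 low cells, with medians of 0.811 FPKM in high and 1.02 FPKM in low cells, and differed by -1.25 (-2.95 after adjustment). Rtp4 did so in 2 of 21 high cells and 8 of 33 low cells, with medians of 0.982 and 1.22 FPKM, and differed by -1.06 (-2.14 after adjustment). With plates pooled, the medians of the 2 groups were close and a minority of low cells had high values. In plate 3, however, the Oas1a median was 108 FPKM in low cells and 0.811 FPKM in high cells. The Oas1a difference was -1.41 in plate 2 and -2.65 in plate 3, and that of Rtp4 was -1.56 and -2.40. Without the 8 cells that reached 3 border macrophage markers, the differences were -0.58 for Oas1a and -0.32 for Rtp4, and the list's median was -0.02. Without plate 3 the list's median was 0.05, above 0. The other genes called lower were Pink1, a kinase of mitochondrial quality control, and Gm27646, whose exons overlap those of Pink1. Pink1 reached 20 FPKM in 1 of 21 high cells and 10 of 33 low cells and differed by -2.06 (-2.91 after adjustment).

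Few cells held 3 or more markers of another cell type, though single markers of some lists were high in most cells. Border macrophage markers (7 of 9 measured) had a median difference of -0.53 pooled, -0.08 in plate 2, -1.99 in plate 3 and -1.55 after adjustment. At least 3 of the 9 were at 20 FPKM in 2 of 21 high cells and 6 of 33 low cells. Their summed level ran from 0.429 to 6158 FPKM in high cells and from 0.315 to 6088 FPKM in low cells, with medians of 15.9 and 7.55 FPKM. Monocyte markers reached that count in 0 high cells and 1 low cell. Their summed level ran from 4.67 to 12029.5 FPKM in high cells and from 4.25 to 26442 FPKM in low cells, nearly all of it from Lyz2, and 0 cells of either group reached 20 FPKM of Ly6c2. Csf3r was the only neutrophil marker measured, the summed level of that list ran from 0.489 to 1793 FPKM in high cells and from 0.123 to 653 FPKM in low cells, and Ly6g and Retnlg averaged 0 FPKM in both groups. Of the B cell markers, Ighm and Cd79b were called higher (2.67 and 1.91) and the summed level ran from 29.5 to 875 FPKM in high cells and from 0.573 to 1249 FPKM in low cells, while 0 cells of either group reached 20 FPKM of Ms4a1 and 0 cells had 3 B cell markers at 20 FPKM. Müller glia markers reached the count in 1 high cell and 2 low cells, and the T and NK cell, photoreceptor, astrocyte, retinal ganglion cell, interneuron and vascular lists in 0 cells of either group. Even so, the median summed level was 274 FPKM in high and 431 FPKM in low cells for Müller glia markers, and 150 and 158 FPKM for cone markers. Apoe reached 20 FPKM in 18 of 21 high and 30 of 33 low cells, Glul in 18 and 23, and the cone marker Gngt2 in 18 and 19. Only 2 of 7 cone markers, Gngt2 and Pde6h, were measured. Their exons overlap those of Abi3 and Arhgdib, so the cone level cannot be told apart from these genes. The cone markers Arr3 and Gnat2 averaged 0 FPKM in high cells, and 0.0633 and 0.000536 FPKM in low cells.

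The cells of the other time points, which had no part in choosing the genes, were split at the same Gpr84 level. This gave 25 high and 11 low cells at day 4 and 16 high and 38 low cells without treatment. At day 4 all 12 cells of plate 2 were high, and the high cells of both time points again had more detected genes, with medians of 4576 in high and 2536 in low cells at day 4, and 3386 in high and 2427 in low cells without treatment. Of 721 genes called higher at day 2, leaving out Gm49482, 667 (92.5%) differed in the same direction at day 4 and 621 (86.1%) in untreated cells, beside 86.6% and 70.5% of all measured genes. Of them, 522 (72.4%) lay above the all-gene median of day 4 (0.74) and 548 (76.0%) above that of untreated cells (0.29). With gene number and plate held constant, 55.3% had the same direction at day 4, beside 55.8% of all genes, and 66.3% in untreated cells, beside 51% of all genes. After that adjustment the share at day 4 was close to that of all genes, and the share in untreated cells was above it.

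Individual genes differed in how far they carried over. In the order untreated, day 2 and day 4, the difference was 3.34, 3.65 and 4.06 for Il1a and 2.90, 2.93 and 3.25 for Nfkbia. For Tnf the untreated value was 1.33 and those of days 2 and 4 were 2.75 and 4.17. Tnf and Il1a were both at 20 FPKM or more in 6 of 16 high and 3 of 38 low untreated cells, and in 21 of 25 high and 1 of 11 low cells of day 4. The homeostatic list had median differences of 2.05, 1.53 and 1.88 in the untreated, day 2 and day 4 cells, and the NF-kB list 0.89, 1.2 and 1.82. The interferon list had 0.35, -0.21 and 1.44. Pmp22 and Golm1, near the top at day 2, differed by 0.77 and 1.0 without treatment and by 1.74 and 1.34 at day 4. Differences between the time points were not tested.

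**Figure D4:**
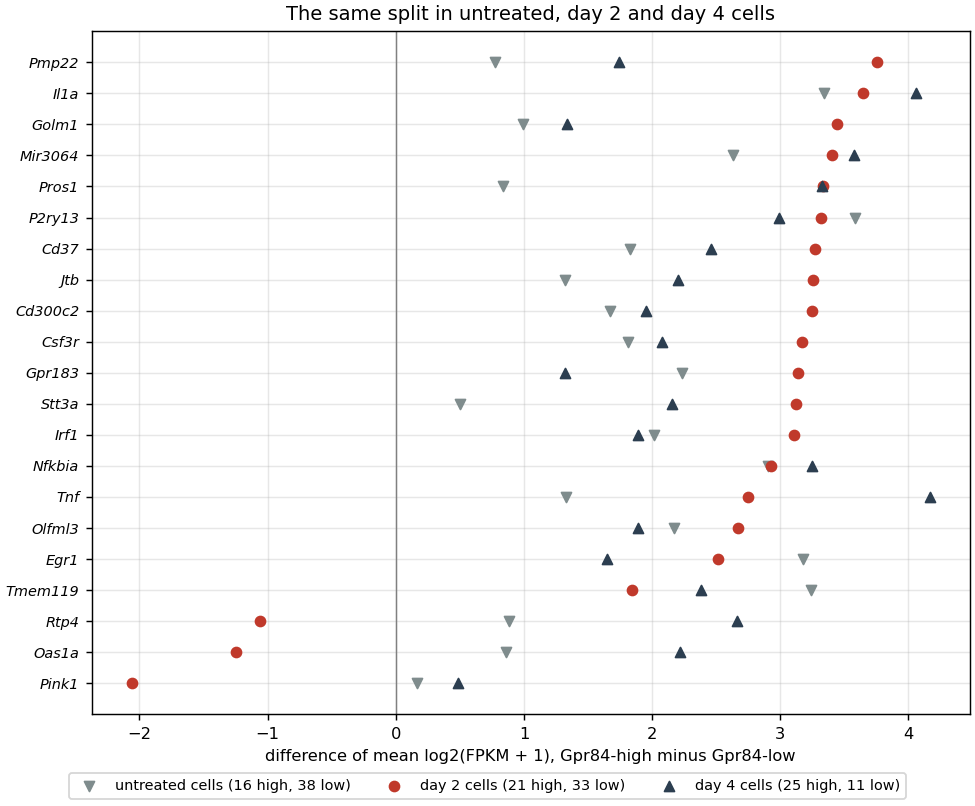
Difference of mean log2(FPKM + 1) between Gpr84-high and Gpr84-low cells for 21 genes, in untreated cells (grey, 16 high and 38 low), cells of day 2 (red, 21 high and 33 low) and cells of day 4 (dark triangles, 25 high and 11 low). All 18 genes with a positive difference at day 2 were also above 0 at the other time points, and Rtp4, Oas1a and Pink1 were below 0 at day 2 only.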

How the data were processed

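Single sorted cells were sequenced, 1 library each. Lysis, cDNA synthesis and amplification shared 1 tube and libraries were tagmented with Nextera XT, per the labels. The submitters' processing notes name featureCounts 1.6.1, the aligner STAR 2.7.2b, the trimmers cutadapt 1.16, Trimmomatic 0.36 and Trim Galore 0.4.4, and the builds GRCm38.p6 and mm10, without settings. No step here used strand. The authors deposited FPKM values in 1 table of 55364 genes by 144 cells, with 0 mitochondrial genes. Many FPKM values were fractions of a read, so no count model was fitted.

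The members and gene lists were chosen with earlier results of these data known. Where a symbol recurred (110 extra rows), its most abundant row was kept. A gene was measured when it reached 1 FPKM in 10% of day 2 cells, which left 8778 genes. Levels were compared as means of log2(FPKM + 1), a pseudocount of 1, which understates differences of low genes. Calls needed a difference of 1 pooled and in each plate with 3 cells or more per group. With 1 sample of cells per group there was no test. Named genes were Gpr84, Tnf, Il1a and further genes of the study's title, the 12 largest differences per direction among called genes reaching 1 FPKM in 30% of cells of a group, and up to 4 per list. Members such as Sall1, Il1b, Ccl3, Gnai2 and C1qa were named in addition, after their values were seen. Some genes and 1 gene list are not reported here. No doublet caller was run on the sorted cells. Recovered depth was tested on simulated cells. Cells had 0.190 to 18.9 M reads at day 2 (M for 1e+06), so low genes are limited by sampling. Intervals are exact (Clopper-Pearson). Promoters are RefSeq sequences of GRCm38.p6, found for 81 of 104 named genes. Python 3.11.15, numpy 2.4.6, pandas 2.3.3 and scipy 1.17.1 were used.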

Additional observations from a re-analysis of the deposited data

Results flagged for a closer look

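Oas1a and Rtp4 went in opposite directions at 2 time points. The difference of Gpr84-high and Gpr84-low cells in mean log2(FPKM + 1) was 2.221 for Oas1a at day 4, against -1.25 at day 2, and 2.663 for Rtp4 at day 4, against -1.06 at day 2. In untreated cells it was 0.86 for Oas1a and 0.89 for Rtp4. At day 2 both plates with a within-plate value lay below 0. The difference between the time points was not tested.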

How the results depend on the processing

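The count of genes called higher, 722, became 250 at a Gpr84 threshold of 10 FPKM, which also asks plate 1 for a value, 1549 with a pseudocount of 0.1, 120 with a pseudocount of 10 and 301 with gene number and plate held constant. Without plate 2 it was 2279 and without plate 3 it was 1383, where only 1 plate still had to meet the rule. The count of genes called lower, 4, became 1 at a threshold of 10 FPKM, 13 at 40 FPKM, 15 without the 8 cells between 10 and 40 FPKM, 20 with a pseudocount of 0.1, 2 with a pseudocount of 10, 220 from the log2 of mean FPKM, 213 with gene number and plate held constant, 27 without plate 1, 22 without plate 2, 74 without plate 3 and 12 without cells under 1e+06 reads. Under the alternatives not named, both counts stayed within 1.5 times. From the log2 of mean FPKM 779 genes were higher, but 280 of these were shared with the 722. A similar count did not mean the same genes. At a threshold of 40 FPKM 778 were higher and 447 were shared. Without the cells between 10 and 40 FPKM it was 918 and 597. Without the cells that reached 3 border macrophage markers it was 1005 and 596. Without plate 1, 787 were higher and 721 were shared. Apart from the construction of the rule, the cause of these changes was not tested.

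Leaving out each of the 54 cells in turn, an alternative chosen after seeing the data, gave 643 to 832 genes higher and 2 to 10 lower. The lower count moved by over 1.5 times without cells D5 (7), D6 (10), E4 (8), F2 (7), F3 (2) or F6 (8) of plate 2, or D3 (7) of plate 3. The median difference of all genes was 0.91 with a pseudocount of 0.1 and 0.16 with a pseudocount of 10. Among the 44 named genes that were called, 2 turned direction under an alternative: Atp5a1 to -0.0082 from the log2 of mean FPKM and Gusb to -0.67 with gene number and plate held constant. Among the 59 that were not called, 27 changed sign under at least 1 alternative. Of 308 list medians under alternatives, 88 moved by more than the SD of the medians of plates 2 and 3, and 13 of 22 lists changed sign at least once. The homeostatic median ranged from 0.57 to 1.97, that of the NF-kB list from 0.51 to 1.98, that of the immediate-early list from 0.45 to 2.13 and that of the interferon list from -1.30 to 0.05. The Il1a difference ranged from 2.46 to 4.21 and that of Tnf from 1.57 to 4.26. No paired analysis was possible because the 2 groups were split from the same cells by a measured level. Depth limits genes near 1 FPKM.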
